A study of Mus musculus with 2 samples.

Results

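In chromatin of the embryonic mouse intestine, 650 of 2741 cJUN peaks (23.7%) had their nearest listed gene start site more than 10 kb and up to 50 kb away. They were chosen by that distance alone, which comes from the peak-to-gene pairing in the deposited peak table. Peaks in clusters were left out, a cluster being 5 or more peaks on a chromosome with gaps of at most 100 kb. The 22 clusters hold 215 peaks, 40 of them at this distance, and the 650 peaks are 25.7% of the 2526 peaks outside clusters. The group is described as candidate proximal enhancers on distance only, since enhancer activity, chromatin marks and RNA were not measured in this series.

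Chromatin immunoprecipitation with sequencing (ChIP-seq) was run on 1 cJUN immunoprecipitate and 1 DNA input control. The cJUN immunoprecipitate was made with a rabbit polyclonal antibody, and the input was sonicated DNA that saw no antibody. Both came from whole intestine at E14.5 (genotype wild type, strain C57BL/6), from 1 litter of 8 embryos, after 24 h in transwell culture, with fragments of about 500 bp. Each group has 1 library, so no value has a replicate error, no p-value is given, and a comparison between sets of peaks describes this single peak list. The tissue was the whole organ, so a peak cannot be assigned to a cell type.

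cJUN is a basic leucine zipper protein. It pairs with Fos, Atf or other Jun proteins to form AP-1, which binds short palindromic DNA sites and acts downstream of growth factor, stress and Jun kinase signals. AP-1 is known for binding enhancers as well as promoters, and an enhancer can act on a gene that is not its closest neighbour. In the embryonic gut at this stage the villi are forming, and epithelium and mesenchyme exchange Hedgehog, Wnt, BMP and growth factor signals.

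The classical AP-1 site reads TGACTCA on one strand and TGAGTCA on the other, and the related site bound by Jun with Atf proteins reads TGACGTCA. The letters of the peaks themselves were not analysed here, because the peaks are on the mm9 build. Promoter windows of their nearest genes were read instead from RefSeq sequence of the GRCm38.p6 assembly, 250 bases before to 50 bases after a start site. Of 603 nearest genes 590 (97.8%) matched the RefSeq table, and 442 of these had at least 1 window. On either strand TGACTCA occurred in 17 of 531 windows of these genes (3.20%, exact Clopper-Pearson 95% interval 1.88 to 5.08), and in 1709 of 32851 windows of all genes (5.20%). The other site occurred in 6 windows of the nearest genes (1.13%, 0.416 to 2.44), an interval that holds the 1.79% found over all genes (588 windows). Neither motif contains the other. Below are the AP-1 sites, in capitals, with 20 bases on each side, from promoters of the 5 named genes that hold one. They are shown because each is the gene end of a peak-gene pair described further down. Each is written 5′ to 3′ on the strand of its gene. The site of Ror2 is at chr13:53286188-53286234 (minus strand), that of Slc6a14 at chrX:21714798-21714844 (plus), that of Adam29 at chr8:55907027-55907073 (minus), that of Inpp5a at chr7:139388909-139388955 (plus) and that of Mylk at chr16:34784866-34784912 (plus), all on GRCm38.p6. A match is a description of the letters and does not show binding, and each peak lies over 10 kb from the listed start site of its gene.
Ror2: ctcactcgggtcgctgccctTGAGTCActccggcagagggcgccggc
Slc6a14: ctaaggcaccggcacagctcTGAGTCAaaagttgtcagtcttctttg
Adam29: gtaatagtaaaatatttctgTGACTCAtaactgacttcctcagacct
Inpp5a: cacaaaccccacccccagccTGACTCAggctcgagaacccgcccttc
Mylk: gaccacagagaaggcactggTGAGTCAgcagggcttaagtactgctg

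Within the window, peak counts per 10 kb fell with distance, and peaks lay about equally often before and after the start site. The median distance was 24.4 kb, with quartiles of 16.1 and 34.7 kb. Of the 650 peaks, 239 lay at 10 to 20 kb, 178 at 20 to 30 kb, 125 at 30 to 40 kb and 108 at 40 to 50 kb. In all 333 were upstream (51.2%, exact interval 47.3 to 55.1) and 317 downstream, against 48.4% upstream among the 1774 other peaks outside clusters that list a gene. An excess of upstream peaks was seen at 10 to 20 kb, where 138 lay upstream and 101 downstream (57.7% upstream, 51.2 to 64.1). At 20 to 30 kb the balance was the other way, with 80 upstream and 98 downstream (44.9%, 37.5 to 52.6). The upstream share was 48.0% at 30 to 40 kb and 50.9% at 40 to 50 kb. Peaks within 10 kb had 55.2% upstream and peaks at 50 to 100 kb had 47.5%. These intervals, like all others here, cover counting error only. The peaks within 10 kb numbered 212, fewer than the 239 at 10 to 20 kb. How much of the genome lies at each distance was not set against these counts.

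**Figure D1:**
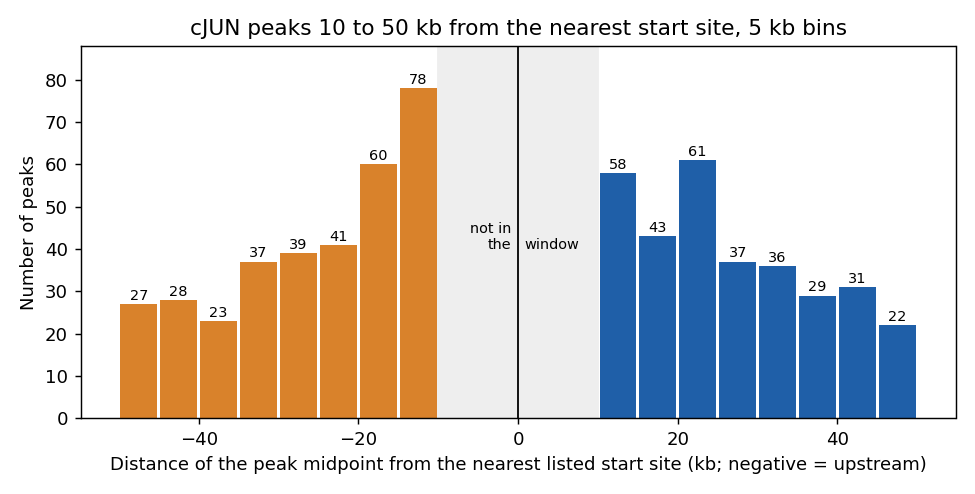
Number of cJUN peaks per 5 kb bin by signed distance from the nearest listed start site in kb, upstream in orange and downstream in blue, with the grey zone outside the distance window. The fullest bins are 10 to 15 kb upstream with 78 peaks and 20 to 25 kb downstream with 61, and the bins at 45 to 50 kb hold 27 upstream and 22 downstream.

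Which sign means upstream is not stated in the deposited table, and this was worked out from genes listed at several peaks. Of 935 genes listed at 2 or more distances, 927 fell at 1 position to within 1 bp under a single reading of the sign. Of the 668 with a known strand, 663 (99.3%) matched that strand when a positive distance was read as downstream of the start site. Downstream here means past the start site along the gene's strand, so such a peak may lie in the gene or beyond it. Whether a peak is exonic or intronic was not analysed here.

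The listed genes of a peak mostly stood on either side of it. A second start site was listed for 608 of the 650 peaks, at a median of 83.1 kb (quartiles 46.3 and 190.4 kb), and it belonged to another gene for 605. The other 42 peaks listed 1 gene. Both start sites were within 50 kb for 174 peaks (26.8%, exact interval 23.4 to 30.4). A gene's strand was taken from its signed distances as worked out above, or from the RefSeq table where these gave none. For 441 peaks both genes had a strand, and 439 of these (99.5%) lay between the start sites. The share was 100% of such peaks in the groups within 10 kb and at 50 to 100 kb, and whether the pairing tool lists 1 gene per side is not stated. Of those 441, 230 (52.2%) lay between genes on the same strand, 104 (23.6%) were upstream of both genes and 105 (23.8%) were downstream of both. Upstream of both were 24.7% of the peaks within 10 kb and 21.2% of those at 50 to 100 kb. Downstream of both were 21.4% within 10 kb and 28.6% at 50 to 100 kb. The shares for the 650 peaks thus fell between those of the nearer and the farther group. For 3 peaks the pair of listed distances belonged to 1 gene with 2 start sites, and each of these lay between the alternative starts. They were at Atf7, 24.8 kb past one start and 71.7 kb before the other, at Uck2, a uridine-cytidine kinase gene, 18.2 kb past and 43.0 kb before, and at Nav1, a neuron navigator gene, 41.8 kb past and 61.0 kb before.

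The borders of the window are arbitrary. Just inside the 10 kb border lay peaks at Dpyd (10.03 kb, fold 18.42) and Smim15 (10.1 kb, fold 19.19), and just outside it peaks at Sytl5 (9.99 kb, fold 14.74) and Vmn1r94 (9.996 kb, fold 22.11). Just inside 50 kb were peaks at Npsr1 (49.9 kb, fold 18.42) and Olfm4 (49.98 kb, fold 25.79), and just outside it peaks at Spry2 (50.02 kb, fold 16.75) and Med28 (50.03 kb, fold 18.42).

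The peaks at 10 to 50 kb were as short and about as strong as other peaks. Fold is the authors' ratio of the immunoprecipitate over background, and the score of a peak is its −log10 p-value from the authors' caller, multiplied by 10. The median fold was 16.75 (quartiles 14.74 and 18.42) for the 650 peaks and 17.59 for the 1876 other peaks outside clusters. The median score was 61.07 for the 650 peaks (quartiles 57.13 and 67.75) and 60.99 for the others. Both medians lay well inside the other group's quartiles. The median length was 149 bp in both, and 6 of the 650 peaks (0.923%) reached 500 bp. Against the neighbouring distance groups, the fold of 16.75 stood between 15.99 within 10 kb and 17.77 at 50 to 100 kb. The score of 61.07 likewise stood between 62.02 within 10 kb and 60.50 at 50 to 100 kb. Within the window, fold and score hardly varied with distance, with median folds of 16.75, 17.19, 16.27 and 17.77 in the successive 10 kb bins. Across the 650 peaks Spearman's correlation was 0.0489 between distance and score and 0.0150 between distance and fold, given as a description of peaks that share 1 pair of libraries.

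**Figure D2:**
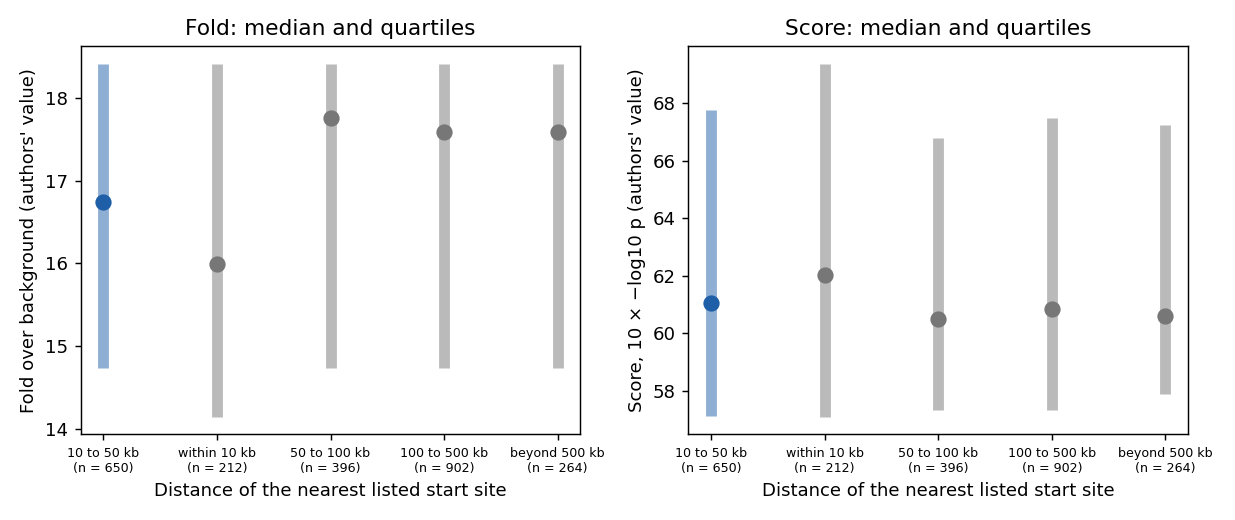
Median (point) and quartiles (bar) of the authors' fold over background (left) and score (right) for the peaks at 10 to 50 kb in blue and the other distance groups outside clusters in grey, on axes that do not start at 0. The median fold is 16.75 at 10 to 50 kb, and all quartile bars overlap widely.

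High scores were somewhat more frequent than among the other peaks outside clusters, but about as frequent as within 10 kb and over all peaks. The share of high folds differed little between these sets. Scores of 100 or more occurred at 29 of the 650 peaks (4.46%, exact interval 3.01 to 6.34). Among the 1876 other peaks outside clusters the share was 2.83%, with 4.25% within 10 kb and 2.53% at 50 to 100 kb. It was 3.25% over all peaks outside clusters and 4.63% over all peaks, both of which include the 650. A fold of at least 20 was reached by 104 of the 650 peaks (16.0%, 13.3 to 19.0). The share was 18.3% among the 1876 others, 17.7% over all peaks outside clusters and 16.4% over all peaks. It was 16.5% within 10 kb and 18.4% at 50 to 100 kb, and the interval holds all of these shares. A fold under 10 was found at 54 of the 650 peaks (8.31%) and at 147 of the others (7.84%). The 40 peaks at this distance that were left out as clustered differed from them, with a median fold of 10.74 and 27.5% scoring 100 or more.

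The very highest scores were found at peaks of low fold, while scores just above 100 occurred at low and high folds alike. The 29 peaks scoring 100 or more had a median fold of 8.14 and a median length of 209 bp, against a fold of 16.89 and a length of 149 bp for the 621 lower-scoring peaks. Of the 29, 17 had a fold under 10 and 7 a fold of at least 20. All 8 peaks scoring 150 or more had a fold of 8.14 or less. Over the 650 peaks the rank correlation of fold with score was 0.303, and peaks such as those at Tlk1 and Lphn1 were high in both. Folds were also stepped. The values 14.74, 18.42, 22.11, 25.79 and 29.48, which are multiples of 3.685 to within 0.01, accounted for 339 of the 650 peaks (52.2%) and for 52.2% of all peaks. The commonest was 18.42, shared by 150 of the 650 peaks. Ranks by fold therefore contain many ties.

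**Figure D3:**
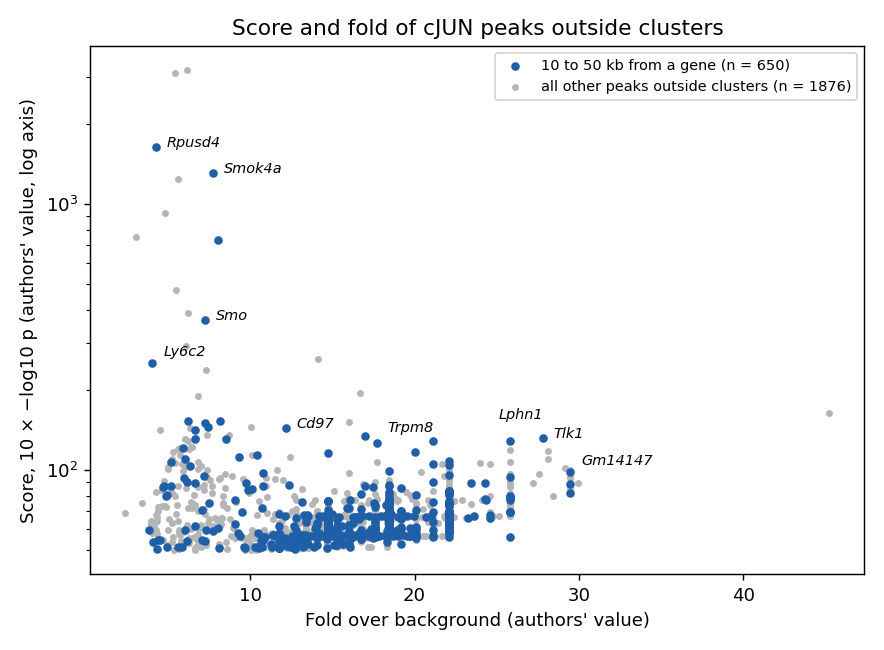
Authors' score (log axis) against authors' fold over background for each peak outside clusters, with the 650 peaks at 10 to 50 kb in blue and the other 1876 in grey, and some nearest genes named. Peaks scoring 150 or more sit at folds of 8.14 or less in the blue group, and vertical stripes mark repeated fold values.

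The highest scores at this distance belonged to peaks of low fold near genes of varied function. Of the 10 highest-scoring peaks, 9 had a fold under 10, and 3 lay upstream and 7 downstream. First was chr9:35112795-35113178 (mm9, as all peak positions here), which scored 1638 at a fold of 4.27. It lay 37.5 kb downstream of the start of Rpusd4, which encodes an RNA pseudouridine synthase, and 116 kb upstream of Cdon, which encodes a Hedgehog co-receptor. A pair of peaks at chr17:13743482-13744624 and chr17:13744631-13746064 scored 729.7 and 1303, with folds of 8.03 and 7.71, near Smok4a, a sperm motility kinase gene that the RefSeq table holds as a transcribed pseudogene. Tcp10c, of the t-complex region of the same chromosome, had a peak 48.4 kb upstream that scored 153 at a fold of 8.14. Chst2, which encodes a sulfotransferase that modifies carbohydrates, had one 18.7 kb upstream (fold 6.21, score 153). Ly6c2, which encodes a surface protein of monocytes, had a peak 25.04 kb downstream (fold 4.04, score 252), and the near copy Ly6c1 lay 37.8 kb to the other side. A peak 32.2 kb downstream of Cdk5rap2, a centrosome gene, scored 145.3 with a fold of 7.45. Reads from near-identical genes cannot be placed with certainty, and how multiply aligned reads were treated is not given in the sources used here.

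Developmental signalling genes were among those 10. A peak of 775 bp at chr6:29697880-29698655, 12.6 kb downstream of the start of Smo, scored 368 with a fold of 7.22. Smo encodes the transducer that Hedgehog signals act through, and Ahcyl2 starts 20.2 kb on the far side of the same peak. The peak at Ror2, chr13:53365268-53365364, was 96 bp long and lay 16.2 kb downstream, and it scored 150.3 at a fold of 7.24. Ror2 encodes a Wnt receptor, and its promoter holds the first AP-1 site shown above. Cd97, which encodes an adhesion G protein-coupled receptor, had a peak 15.7 kb upstream at chr8:86280650-86280887 (fold 12.17, score 143.5). It was the only one of the 10 with a fold above 10.

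The highest folds were found at short peaks whose scores lay above the group's upper quartile of 67.75. The 10 peaks with the highest fold were 79 to 184 bp long, with folds of 25.79 to 29.48 and scores of 78.59 to 132.3, and 7 were upstream and 3 downstream. Ties in fold were broken by score, so the lower end of this score range follows from the choice. The fold of 29.48 was shared by peaks 14.1 kb downstream of the predicted gene Gm14147, 23.9 kb downstream of Wdfy1, which encodes an endosomal phosphoinositide-binding protein, and 48.4 kb upstream of Pcbp1, which encodes a poly(C)-binding RNA regulator. Tlk1, a tousled-like kinase gene used in chromatin assembly, had a peak 43.7 kb downstream (fold 27.79, score 132.3). The remaining 6 were the highest-scoring of 11 peaks that shared a fold of 25.79, whose scores began at 55.93. Among them, Ovol2, a zinc finger transcription factor gene of epithelial cells, had a peak 12.8 kb upstream at chr2:144170647-144170757 with a score of 80.23, and the peak was also 24.0 kb upstream of Csrp2bp. The others lay upstream of Mup14, a major urinary protein gene (26.2 kb, score 94.27), Mon1b, a gene of endosome traffic (33.0 kb, 79.28), 4930578C19Rik (49.3 kb, 79.24) and Tgif2lx2, a homeobox gene (16.6 kb, 78.59). The last was Lphn1, which encodes the adhesion receptor latrophilin and starts on the other side of the Cd97 peak. The Lphn1 peak at chr8:86383139-86383323, 40.8 kb upstream of Lphn1 and 118 kb upstream of Cd97, had a score of 128.9. The stretch between the divergent start sites of these related receptor genes thus held 1 peak of the 10 highest scores and 1 of the 10 highest folds.

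Most nearest genes had a single peak at this distance. The 650 peaks had 603 different nearest genes, of which 561 had 1 peak, 37 had 2 and 5 had 3. The 42 genes with more than 1 accounted for 89 peaks (13.7%). For 21 of them all peaks were upstream, for 14 all downstream, and for 7 on both sides. Each peak was counted from its own nearest start site. The 2 peaks of Uck2, counted as downstream, were placed from different starts and lie on either side of 1 of these. The peaks of a gene were often close together, with a median span of 4.74 kb, a span of up to 5 kb in 22 genes and of over 20 kb in 9. Over the whole group, another peak within 1 kb was found for 24 of the 650 peaks (3.69%) and for 2.93% of the others outside clusters. Within 10 kb, another peak was found for 76 of the 650 (11.7%) and for 188 of the 1876 others.

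**Figure D4:**
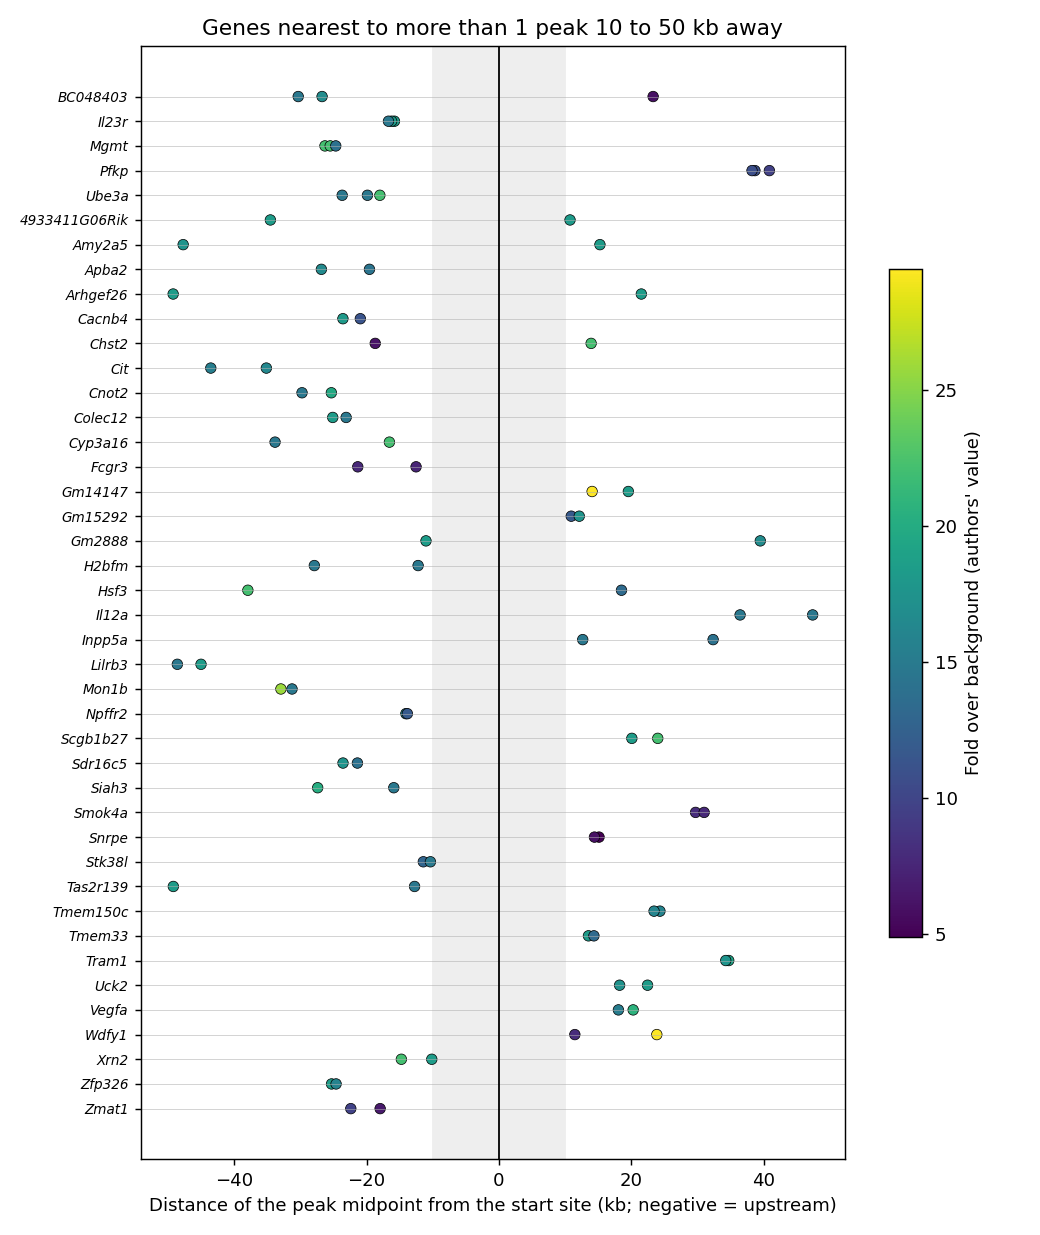
Signed distance in kb from the start site of each peak of the 42 genes nearest to more than 1 peak at 10 to 50 kb, coloured by the authors' fold, genes with 3 peaks at the top. Peaks of 35 genes lie on 1 side of their nearest start site, and those of Il23r, Mgmt and Pfkp fall within 3 kb of each other. The peaks of Uck2, 1 of the 35, are placed from different starts.

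Of the 5 genes with 3 peaks, 4 had them on 1 side of the start site, with spans of 1.05 to 5.84 kb. Il23r, which encodes the receptor for interleukin 23, had peaks 15.8, 16.2 and 16.7 kb upstream within 1.05 kb, with folds of 18.42, 18.42 and 14.74 and scores of 57.75, 76.24 and 60.15. Mgmt, which encodes a DNA repair methyltransferase, had peaks 24.7, 25.5 and 26.3 kb upstream within 1.80 kb, with folds of 14.07, 22.11 and 22.11. Ube3a, an imprinted ubiquitin ligase gene, had peaks 17.997, 19.9 and 23.7 kb upstream within 5.84 kb, with folds of 22.11, 14.74 and 14.74. Pfkp, which encodes a phosphofructokinase of glycolysis, had the group of lowest fold, with 10.78, 10.87 and 9.70 at 38.3, 38.7 and 40.9 kb downstream and scores of 50.83 to 56.01. BC048403 had peaks on both sides, with a span of 53.8 kb and folds of 5.98 to 16.74. Whether neighbouring peaks of a gene are separate binding sites was not tested.

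The function of the nearest genes was described with 40 gene lists. Of the 603 nearest genes, 574 are protein-coding in the RefSeq table, which is 2.62% of the 21896 protein-coding genes. Among them 268 (46.7%) belong to at least 1 list, and 39 of the 40 lists hold at least 1 nearest gene. In 20 lists the share was above 2.62%. Most lists are small, so that 1 or 2 genes make a share, lists overlap in some members, and no list was tested. The lists do not hold every gene of their function, so counts and ranks below apply to list members only. The lists were chosen with earlier results of these data known.

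**Figure D5:**
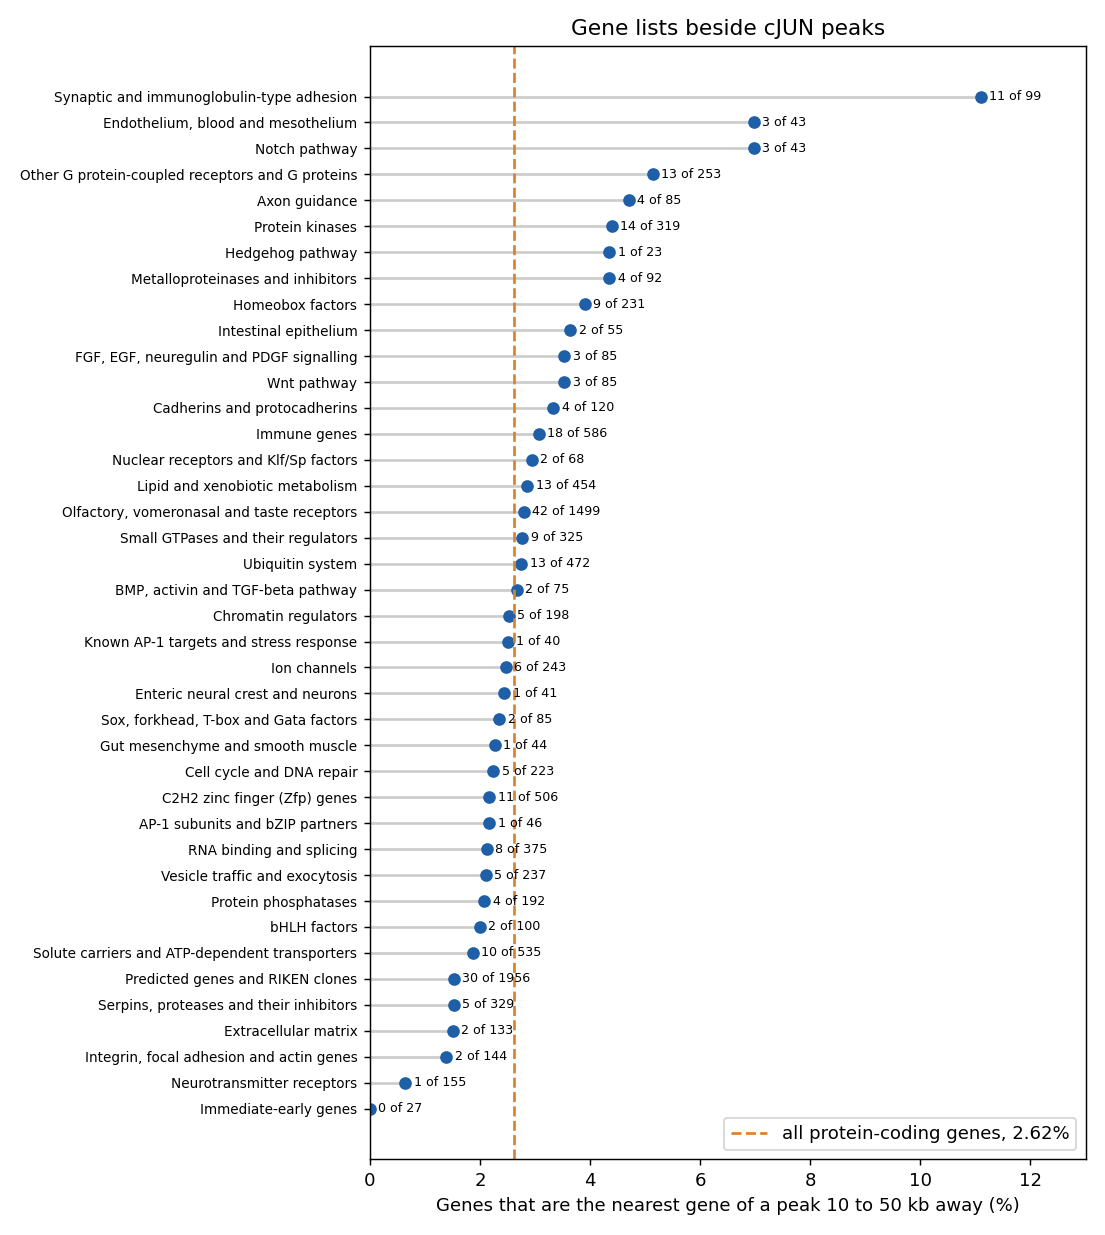
Percent of the genes of each list that are the nearest gene of a peak at 10 to 50 kb, with the counts beside the points and a dashed line at 2.62%, the share over all protein-coding genes. Synaptic and immunoglobulin-type adhesion genes are highest with 11 of 99, and no immediate-early gene among 27 is a nearest gene at this distance.

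AP-1's own genes and its classical targets held 1 nearest gene each. Of 46 AP-1 subunit and bZIP partner genes 1 was a nearest gene (2.17%). It was Atf7, a partner of Jun proteins, and the peak between its start sites, chr15:102431060-102431200, scored 64.69 at a fold of 15.29. Of 40 known AP-1 target and stress genes 1 was a nearest gene (2.5%), namely Vegfa, the vascular endothelial growth factor gene. It had a pair of peaks spanning 2.38 kb, the outer 20.3 kb downstream (fold 20.68, score 66.77) and the inner 18.1 kb downstream (fold 15.24, score 56.70). None of 27 immediate-early genes was a nearest gene (exact interval 0 to 12.8%), a list too short to separate from 2.62%. With a window of 5 to 50 kb, 1 of them was a nearest gene. At peaks of any distance 7 of the 27 (25.9%) were listed, against 12.5% of all protein-coding genes. That share was 15.2% for the AP-1 subunit list and 7.5% for the AP-1 target list.

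Among pathways that pattern the gut, each list held 1 to 3 nearest genes. The Hedgehog list had 1 of 23 (4.35%), Smo, described above. Wnt genes had 3 of 85 (3.53%). Besides Ror2 these were Tcf7l1, a transcription factor gene of the Tcf family, with a peak 17.8 kb upstream (fold 25.79, score 77.33), and Wls, which encodes the carrier that brings Wnt proteins to the cell surface, with a peak 11.2 kb upstream (fold 18.42, score 58.39). Notch genes had 3 of 43 (6.98%) and covered the pathway's nuclear factor, a target and a feedback inhibitor. Rbpj, the DNA-binding partner of activated Notch, had a peak 39.0 kb downstream (fold 14.74, score 58.82). Hey1, a repressor gene induced by Notch, had one 12.3 kb downstream (fold 18.42, score 61.30), and Nrarp, a gene of an inhibitor that Notch induces, had one 19.4 kb upstream (fold 14.74, score 57.75).

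Ligand and receptor genes of growth factor pathways were also few. The BMP, activin and TGF-beta list had 2 of 75 (2.67%), Acvr1c, which encodes an activin receptor-like kinase, at 15.2 kb downstream (fold 18.42), and Fstl5, of the follistatin-like family, at 17.6 kb downstream (fold 14.74). The FGF, EGF, neuregulin and PDGF list had 3 of 85 (3.53%), all of them ligand genes. Besides Vegfa they were Fgf7, a mesenchymal ligand for epithelium, with a peak 21.2 kb upstream (fold 18.42, score 62.02), and Fgf9, a ligand gene of the embryonic gut, with a peak 20.01 kb upstream (fold 13.40, score 54.74).

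Genes that mark the cell types of the gut were each represented by 1 to 3 members. Intestinal epithelium had 2 of 55 (3.64%). They were Esrp1, an epithelial splicing regulator gene, with a peak 10.6 kb upstream (fold 14.74, score 59.25), and Olfm4, a stem cell marker of the later intestine, with a peak 49.98 kb downstream (fold 25.79, score 55.93). Mesenchyme and smooth muscle had 1 of 44 (2.27%), Snai2, a repressor gene of mesenchymal cells, at 17.9 kb upstream (fold 14.74, score 67.26). The enteric neural crest had 1 of 41 (2.44%), Ret, which encodes the receptor for glial-derived growth factors and is required for the gut's nervous system, at 17.9 kb upstream (fold 18.42, score 68.90). Endothelium, blood and mesothelium had 3 of 43 (6.98%). Alas2, the heme synthesis gene of red cells, had a peak 32.7 kb upstream (score 77.86), Emr1, the macrophage marker F4/80, one 30.9 kb downstream (58.17), and Muc16, a mesothelial mucin gene, one 11.0 kb downstream (57.13). These lists name genes and do not show in which cells cJUN was bound.

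Transcription factor lists had shares of 2.0 to 3.90%, the highest for homeobox genes. The homeobox list, which leaves out the homeobox gene Tgif2lx2 named above, had 9 of 231 (3.90%). It was led by Mkx, a regulator of tendon formation, at 29.0 kb upstream (fold 10.77, score 97.33). Hmx3, a regulator of the inner ear, had a peak 48.1 kb upstream (fold 24.30, score 89.60), and Obox1, an oocyte-specific homeobox gene with close copies, had one 49.0 kb downstream (fold 18.42, score 79.54). The Sox, forkhead, T-box and Gata list had 2 of 85 (2.35%), Sox3 at 32.6 kb upstream (fold 14.99, score 68.43) and Foxo6 at 23.4 kb downstream (fold 22.11, score 67.72). Of 100 bHLH genes 2 were nearest genes (2.0%), Hey1 and Olig3, a neural factor gene with a peak 28.9 kb downstream (fold 19.19, score 85.58). Nuclear receptor and Klf/Sp genes had 2 of 68 (2.94%), Nr1d2, a repressor gene of the circadian clock, at 42.5 kb downstream (fold 22.11) and Ppard, a fatty acid receptor gene, at 35.6 kb downstream (fold 14.14). The C2H2 zinc finger (Zfp) list had 11 of 506 (2.17%), led by Zfp326 (score 72.07), Zbtb14 (70.63) and Zfp263 (66.13). It leaves out Ovol2, the zinc finger gene described above, whose peak scored 80.23.

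Chromatin regulators had 5 of 198 (2.53%), with all 5 peaks upstream. Hmga2, an architectural chromatin gene of embryonic tissues, had the strongest, 35.3 kb upstream (fold 20.05, score 117). Pcgf5, a Polycomb gene, had a peak 48.9 kb upstream (fold 18.18, score 67.23), and Satb1, a chromatin organiser gene also in the homeobox list, had one 37.9 kb upstream (fold 18.42, score 58.82).

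Genes of cell adhesion in the nervous system had the highest share of the 40 lists. Of 99 synaptic and immunoglobulin-type adhesion genes 11 were nearest genes (11.1%, exact interval 5.68 to 19.0), each with 1 peak, 7 upstream and 4 downstream. The list was also frequent at peaks of any distance, where 45 of its 99 genes (45.5%) were listed, against 12.5% of all protein-coding genes. Lphn1 led the list, followed by Lrrn3, a leucine-rich repeat gene of neurons, at 29.4 kb upstream (fold 10.12, score 85.25), and Slitrk3, an inducer of inhibitory synapses, at 30.8 kb downstream (fold 14.74, score 68.42). The other 8, given after their values were seen, were Cntnap5c, Il1rapl1, Cadm1, Lsamp, Nfasc, Cntn4, Dscam and Lrrtm2, with scores of 56.70 to 67.23. Apart from Lphn1 and Lrrn3, all scores of the list were therefore near the median of 61.07. Neurotransmitter receptor genes had 1 of 155 (0.645%), Grik1, a kainate receptor gene, at 29.2 kb downstream (fold 15.99). The exact interval of that share, 0.0163 to 3.54, holds the 2.62% of all protein-coding genes. The count of 1 depended on the window, with 3 genes at 5 to 50 kb and 6 at 10 to 100 kb. Axon guidance had 4 of 85 (4.71%), led by Epha4, an ephrin receptor gene, at 32.2 kb downstream (fold 22.11, score 83.19), Unc5d, a netrin receptor gene, at 40.7 kb upstream (score 58.12), and Ntng1, a netrin-G gene, at 23.7 kb downstream (score 55.99). Cadherins and protocadherins had 4 of 120 (3.33%), with Pcdhb8, one of a row of similar protocadherin genes, at 10.1 kb (score 76.24), Cdh18 at 11.3 kb (74.38) and Pcdh17 at 11.3 kb (68.42). A share above 12.5% at peaks of any distance was not particular to the adhesion list. There it was 30.6% for axon guidance, 25.8% for cadherins and protocadherins and 25.8% for neurotransmitter receptors.

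Matrix and cytoskeleton lists held 2 nearest genes each. Extracellular matrix had 2 of 133 (1.5%, exact interval 0.183 to 5.33), Lama1, a laminin gene of basement membranes, with a peak 44.2 kb downstream (fold 6.61, score 89.60), and Fbln1, the fibulin 1 gene, with one 11.7 kb upstream (fold 12.13, score 55.53). Integrin, focal adhesion and actin genes had 2 of 144 (1.39%, 0.169 to 4.93). Both intervals hold 2.62%, and with a window of 5 to 50 kb the second list held 5 genes. They were Itga8, an integrin gene of mesenchyme and smooth muscle, at 37.7 kb downstream (fold 16.75, score 54.95), and Mylk, the myosin light chain kinase gene of smooth muscle, at 41.9 kb upstream (fold 4.90, score 51.56). The Mylk promoter holds an AP-1 site shown above, and its peak at chr16:34743083-34743171 is among the weakest of the group. Metalloproteinases and inhibitors had 4 of 92 (4.35%), with Tll1, a tolloid-like protease gene, at 41.4 kb upstream (score 76.73), Mmp20, the enamel protease gene, at 18.2 kb upstream (67.72), and Adam29, whose promoter site is shown above, at 17.2 kb downstream (67.26).

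Among the lists of signal-transducing enzymes, protein kinases had the highest share, with an interval that holds the 2.62% of all protein-coding genes. The protein kinase list, which leaves out some kinase genes such as Tlk1 (score 132.3, described above), had 14 of 319. That is 4.39% (exact interval 2.42 to 7.25), with 15 peaks. Stk10, a lymphocyte kinase gene, had a peak 46.6 kb downstream (fold 14.74, score 115.6), Map2k6, which activates the p38 stress kinases, had one 23.2 kb downstream (fold 6.12, score 90.59), and Alk, a receptor kinase gene of neural tissue, had one 29.0 kb upstream (fold 22.11, score 69.14). Small GTPases and regulators had 9 of 325 (2.77%), led by Tbc1d2b (fold 7.15, score 94.86), Arhgef26, a GTPase activator gene with peaks on both sides (best score 76.49), and Agap1 (67.98). Protein phosphatases had 4 of 192 (2.08%), a list that takes in the inositol phosphate phosphatase gene Inpp5a and the lipid phosphatase gene Mtmr3. Inpp5a, whose promoter site is shown above, had a pair of peaks downstream, the nearer at 12.7 kb (fold 14.74, score 60.15), while Ptpn12, a tyrosine phosphatase gene, scored 59.70 and Mtmr3 59.03. The ubiquitin list had 13 of 472 (2.75%), led by the ligase gene March11 (fold 21.11, score 105.4), Klhl13 (70.88) and Ube3a.

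Membrane proteins and their signalling partners included some of the stronger peaks. Other G protein-coupled receptors and G proteins had 13 of 253 (5.14%, exact interval 2.76 to 8.63), with 11 peaks upstream and 3 downstream. The 13 are not all receptors, since they include Rgs9, Rgs3, Rgs18 and Gna12, genes of G proteins and their regulators. Within this list, Cd97 was followed by Bdkrb2, a bradykinin receptor gene, at 38.4 kb upstream (fold 10.38, score 113.7). Then came Gpr101, an orphan receptor gene, at 39.9 kb upstream (fold 18.42, score 69.14). The list leaves out the receptor gene Npsr1, named above at the 50 kb border, whose peak scored 99.56. Ion channels had 6 of 243 (2.47%), led by Trpm8, the cold-sensing channel gene, at 28.3 kb downstream (fold 17.70, score 126.7), then Kcnk12, a potassium channel gene (76.91), and Cacnb4, a calcium channel subunit gene with 2 peaks upstream (best score 74.13). Solute carriers and ATP-dependent transporters had 10 of 535 (1.87%), led by the amino acid carrier genes Slc7a12 (score 73.67), Slc6a20b (70.13) and Slc6a14 (69.46). The Slc6a14 peak lay 34.3 kb upstream with a fold of 9.5, and the promoter holds an AP-1 site shown above.

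General cell functions were represented by 5 to 8 nearest genes per list. RNA binding and splicing had 8 of 375 (2.13%). Snrpe, a core spliceosome gene, had a pair of long peaks of low fold about 15 kb downstream, with folds of 6.05 and 4.91 and scores of 110.2 and 80.44, while Pcbp1 is described above and Ddx1, a helicase gene, scored 69.14. Vesicle traffic had 5 of 237 (2.11%), with all 5 peaks downstream, led by Rims1, a gene of the synaptic release site (68.62), and the sorting nexin genes Snx9 (67.86) and Snx27 (66.13). The cell cycle and DNA repair list, which leaves out the repair gene Mgmt described above (best score 83.19), had 5 of 223 (2.24%). It was led by Ccng2, a cyclin gene of arrested cells (fold 9.07, score 77.15), Cenpw, of the centromere (73.21), and Ercc4, of excision repair (72.31).

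Immune, metabolic and sensory gene lists are long, and their counts were high at shares near 2.62%. The exact intervals of the immune, metabolism, serpin and sensory receptor lists below all hold 2.62%. Immune genes had 18 of 586 (3.07%), with Ly6c2 and Il23r described above and Fcgr3, an antibody receptor gene, with 2 peaks upstream of low fold (7.5 and 7.75). Lipid and xenobiotic metabolism had 13 of 454 (2.86%), among them Hsd11b1, which activates glucocorticoids (70.41), and the cytochrome P450 gene Cyp2d34 (70.35). Serpins and proteases had 5 of 329 (1.52%), with Serpinb5, the maspin gene of epithelia, at 11.9 kb upstream (fold 22.11, score 74.40), the serine protease gene Tmprss11g (66.18) and Casp8, which starts death receptor apoptosis (57.03). Olfactory, vomeronasal and taste receptors, known from sensory organs rather than the gut, had 42 of 1499 (2.80%). Their strongest peaks, at Vmn1r212 (score 88.24), Olfr295 (81.42) and Olfr1229 (78.21), scored in the same range as the leading peaks of many lists above. Such receptors, like the Mup and Ly6 genes, have near-identical copies whose reads may be hard to place. Predicted genes and RIKEN clones had 30 of 1956 (1.53%, exact interval 1.04 to 2.18), led by 4930596D02Rik (score 104.3), Gm14147 and BC048403. This was the 1 list of the 40 whose interval lay wholly below 2.62%. It holds protein-coding genes only, while 78 nearest genes of any biotype had systematic names. At peaks of any distance 7.26% of the list was listed, against 12.5% of all protein-coding genes.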

How the data were processed

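ChIP-seq peaks came from 1 cJUN immunoprecipitate against 1 input. The submitters' processing notes name Bowtie 1.1.0, MACS 1.4 and mm9. Not given in the sources used here are how duplicate and multiply aligned reads were treated, the peak threshold and the gene pairing tool. The authors' fold is a ratio of signal over background as deposited, and the deposited score is 10 times the −log10 p-value, per the file headers. Both were used only to describe and rank peaks. Total reads were not used here, so depth is unknown. The base of the start coordinate (0 or 1) is not stated.

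Peaks were selected with Python 3.11.15 and pandas 2.3.3, and the selection was tested on simulated data. Exact Clopper-Pearson 95% intervals used SciPy 1.17.1. Distances run from a peak's midpoint to the listed start site. Gene symbols were matched to RefSeq (GRCm38.p6) for names, biotypes, strands and promoter sequence. To place a peak between 2 genes, the RefSeq strand was used only where the signed distances gave none. The members and lists were chosen with earlier results of these data known. Named genes are the 10 peaks of highest score, the 10 of highest fold, up to 3 genes per list by highest-scoring peak, genes with 3 or more peaks, and the peaks next to each border; some genes that this takes are not reported here. Alternatives were limits of 100 on score and 10 on fold, merging peaks within 1 kb, keeping clusters, a cluster gap of 50 kb, windows of 5 to 50 and 10 to 100 kb, and leaving out predicted genes.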

Additional observations from a re-analysis of the deposited data

How the results depend on the processing

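No paired analysis was possible because each group has 1 library. The 10 main results moved by less than 1.5 times with peaks within 1 kb counted once, clusters kept, a cluster gap of 50 kb, or a window of 5 to 50 kb. The largest of these moves were in genes with more than 1 peak, 60 at 5 to 50 kb and 32 with peaks merged against 42, and in the share scoring 100 or more, 5.797% with clusters kept against 4.462%. With a score of at least 100, 29 peaks at 28 genes were left, so counts fell by construction. Their median fold was 8.14 and median score 130.4, with 44.83% upstream, 17.24% with both genes within 50 kb, 24.14% at a fold of at least 20, 1 gene with more than 1 peak, and 11 lists with a nearest gene. With a fold of at least 10, 2.013% of peaks scored 100 or more. A window of 10 to 100 kb gave 1046 peaks, 951 genes, 84 genes with more than 1 peak, and 16.63% with both genes within 50 kb, which follows from the window. Without predicted genes that share was 23.3%. Counts of the 40 lists moved by over 1.5 times in 38 lists at a score of at least 100, 27 at 10 to 100 kb, 4 at 5 to 50 kb, 3 at a fold of at least 10 and 1 without predicted genes. With 1 library per group and unknown depth, how many of the weaker peaks would recur in another library was not measured.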

Other observations

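A few gene families noticed after their values were seen stood beside several of the 650 peaks. Major urinary protein (Mup) genes, which form a dense row of near-identical copies on chromosome 4, had 8 of 22 members as nearest genes, against 2.62% of all protein-coding genes. Their 8 peaks lay 10.9 to 33.8 kb away, with folds of 11.73 to 25.79 and scores of 50.98 to 94.27. Of the 8 Haus genes, which encode subunits of the augmin complex of the mitotic spindle, 3 were nearest genes, with folds of 10.69 to 14.89 and scores of 56.70 to 71.78.

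Chromosomes differed in how many of their peaks lay at this distance. On chromosome 2, 57 of 155 peaks outside clusters (36.8%) were 10 to 50 kb from a gene, and on chromosome 7 the share was 34.5%. On chromosome 14 it was 26 of 141 (18.4%), and on chromosome 12 it was 18.9%. Gene density was not set against these shares.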
